A study of Mus musculus with 16 samples.

Results

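Genes that move glutamate, GABA, glycine or glutamine across membranes were followed through the mouse hippocampus. Their members were the probes whose symbol in the platform annotation was Slc1a1, Slc1a2, Slc1a3, Slc6a9, Slc6a11, Slc17a7, Slc32a1, Slc38a3 or Slc38a5, which gave 13 probes of 25697 on the array and 9 genes of 16593 with a symbol. Of these genes 6 are known mainly from glia (Slc1a2, Slc1a3, Slc6a9, Slc6a11, Slc38a3 and Slc38a5), and the other 3 from neurons (Slc1a1, Slc17a7 and Slc32a1). Slc1a2 had 4 probes, Slc1a1 had 2, and every other gene had 1.

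RNA was hybridised to Illumina MouseRef-8 v2 arrays, read in 1 colour, 16 in all, with 4 arrays in each of 4 groups. All animals were male Swiss-Webster mice, labelled 15 weeks old, of lines bred for high (HA) or low (LA) swim stress-induced analgesia. The HA DMI and LA DMI groups are labelled as given desipramine (DMI), a tricyclic that blocks noradrenaline reuptake, in 21 intraperitoneal injections at 7.5 mg/kg/day. The HA saline and LA saline groups are labelled as given saline, although the treatment text attached to their samples is the same desipramine text as in the DMI groups. By the methods of the study each array held RNA pooled from several mice, which the labels do not mention, so the spread between arrays is a spread between pools.

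Released glutamate, GABA and glycine are not broken down in the synaptic cleft but are taken up again by sodium-coupled transporters, most of them in the membranes of astrocytes. Astrocytes turn captured glutamate into glutamine and pass it to neurons through system N transporters, and neurons rebuild glutamate or GABA from it and load it into vesicles through vesicular transporters. In the hippocampus the excitatory synapses of the principal cells run this cycle with glutamate, and local interneurons run it with GABA.

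Levels are log2 signals, quantile normalized over the 16 arrays so that a step of 1 is a doubling. Differences between groups come from limma's moderated test over all 25697 probes with Benjamini-Hochberg adjustment. A probe passed at an adjusted p under 0.05 together with a log2 difference beyond 0.5, and results at the adjusted p alone are named as such. Mean signals per array lay between 240 and 421, and 12900 to 13886 probes per array were detected, meaning that their signal stood above the negative controls at a detection p under 0.05. Of the 13 probes, 11 were detected on all 16 arrays, whereas Slc1a2 probes 3 and 4 were detected on 3 and 2 arrays.

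Within groups the arrays correlated at 0.9889 or more over all probes. HA saline arrays and LA saline replicate 2 stood apart in genes of the thalamus and habenula, neighbours of the hippocampus. The summed signal of 17 such genes was 8898 to 9391 on the HA saline arrays and 7327 on LA saline replicate 2, and between 3390 and 5832 on the other 11 arrays. In pooled tissue, fewer cells of a type and less RNA per cell cannot be told apart.

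The GABA transporter Slc6a11 (GAT-3) and the glycine transporter Slc6a9 (GlyT1), both known from astrocytes, were the only members that passed a test with the limit on size. Both were highest on the HA saline arrays. Their promoters are shown because these are the genes whose levels moved together. Slc6a11 lies on chromosome 6 at 114131241 to 114249886 and Slc6a9 on chromosome 4 at 117835258 to 117869305 (GRCm38.p6). The sequences are RefSeq's, 300 bases each on the plus strand, 5′ to 3′, from 250 bases before a transcription start, with GC boxes in capitals. They are reference sequence and not that of Swiss-Webster mice.
Slc6a11, chr6:114130991-114131290: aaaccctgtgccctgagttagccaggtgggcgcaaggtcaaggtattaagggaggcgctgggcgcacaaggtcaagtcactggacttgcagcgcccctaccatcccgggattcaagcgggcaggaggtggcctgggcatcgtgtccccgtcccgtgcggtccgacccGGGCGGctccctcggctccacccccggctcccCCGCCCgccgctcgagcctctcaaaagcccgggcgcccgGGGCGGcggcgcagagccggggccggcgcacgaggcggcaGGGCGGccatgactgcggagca
Slc6a9, the first of 3 annotated starts, chr4:117835008-117835307: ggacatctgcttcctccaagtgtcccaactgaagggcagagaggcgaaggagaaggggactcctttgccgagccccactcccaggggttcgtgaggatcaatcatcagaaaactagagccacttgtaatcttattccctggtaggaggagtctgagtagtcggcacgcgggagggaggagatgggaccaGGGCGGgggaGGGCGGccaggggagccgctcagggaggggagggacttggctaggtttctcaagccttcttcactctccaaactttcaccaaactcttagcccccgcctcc

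On both strands of RefSeq promoters of 300 bases 5 motifs were searched, namely the GC box (GGGCGG), the cyclic AMP response element (TGACGTCA), the E-box (CACGTG), the TATA box (TATAAA) and the TCF/LEF core (CTTTGA). The Slc6a11 promoter held 4 GC boxes and the first Slc6a9 promoter held 2, while the other 2 Slc6a9 starts held none of the 5 motifs. Of 32851 promoters 35.7% held a GC box, 1.79% a cyclic AMP response element, 7.15% an E-box, 13.6% a TATA box and 16% a TCF/LEF core. The Slc6a11 window had 32 CpG dinucleotides and the first Slc6a9 window had 10. Promoters were found for 8 of the 9 genes, all but Slc38a3. These matches describe the letters in the window and nothing more, and which Slc6a9 start the probe reads is not given in the sources used here.

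Slc6a11 was measured at 8.42, 8.31, 8.43 and 8.53 on the HA saline arrays and at 7.81, 7.87, 7.64 and 7.87 on the HA DMI arrays. The groups did not overlap, and every HA DMI array lay below every HA saline array. The log2 difference, DMI-labelled minus saline-labelled, was -0.62 (SE 0.11, 95% interval -0.85 to -0.39, 1.54-fold, adjusted p = 0.023). This direction is opposite to the one the study gives for Slc6a11 and Slc6a9, and the sign is opposite for Slc17a6 and the thalamic genes Gbx2 and Zic1 as well. In LA mice the sign is also opposite for choroid plexus genes (Ttr, Otx2, Kl) and striatal genes (Rarb, Ppp1r1b, Tac1) that the study gives as raised. The study also measured Slc6a11, Slc17a6 and Gbx2 (HA) and Ttr and Otx2 (LA) by quantitative PCR on the unpooled RNA samples. It reports that the PCR results matched its arrays. Slc6a9 was not among its PCR genes, and its PCR values were not used here. The groups are therefore named by their labels throughout and no direction of drug action is drawn from them.

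In LA mice the saline arrays read 7.58, 8.24, 7.83 and 7.59 for Slc6a11, and the DMI arrays read 7.67, 7.88, 7.62 and 7.69. The LA groups overlapped, with replicate 2 the highest of the LA saline arrays. The LA difference was -0.09 (SE 0.11, interval -0.32 to 0.14, adjusted p = 0.88). The difference between the lines' differences was -0.53 (SE 0.16, interval -0.86 to -0.20, unadjusted p = 0.0032, adjusted p = 0.43) and did not pass. Of the 16 fits with 1 array left out it passed in 1, without LA saline replicate 2 (-0.67, adjusted p = 0.023). In the others the adjusted p reached up to 0.64. Without that array the count over all probes in this comparison also rose, from 1 to 28.

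On saline-labelled arrays Slc6a11 was higher in HA than in LA mice by 0.61 (SE 0.11, 1.53-fold, adjusted p = 0.0024), with no overlap between 4 and 4 arrays. On DMI-labelled arrays the HA minus LA difference was 0.08 (interval -0.15 to 0.31, adjusted p = 0.80), with the groups overlapping. The 4 HA saline arrays thus lay above the other 12, of which LA saline replicate 2 came nearest.

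The HA difference of Slc6a11 was sensitive to the setting and to single arrays. Its adjusted p was 0.062 with normexp background correction (difference -0.86), 0.38 with arrays scaled to a common median in place of quantile normalization (-0.64), and between 0.058 and 0.089 when any of HA DMI replicates 1, 2 and 3 or HA saline replicates 1, 3 and 4 was left out. The difference between lines on saline-labelled arrays passed in each of these settings.

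Slc6a9 was measured at 9.85, 9.70, 9.82 and 9.86 on the HA saline arrays and at 9.45, 9.18, 9.34 and 9.22 on the HA DMI arrays. These groups did not overlap either. The difference of -0.51 (SE 0.12, interval -0.77 to -0.26, 1.43-fold) had an adjusted p of 0.081 and did not pass. It passed when only the 14583 probes detected on at least 4 arrays were tested (adjusted p = 0.046), when only the 8 HA arrays were fitted (0.0022), and without LA DMI replicate 1 (0.046) or LA saline replicate 2 (0.011).

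In LA mice Slc6a9 read 9.17, 9.68, 9.02 and 9.16 on the saline arrays and 9.54, 9.14, 9.01 and 9.27 on the DMI arrays. The groups overlapped, with replicate 2 the highest of the saline arrays and replicate 1 the highest of the DMI arrays. The difference was -0.02 (SE 0.12, interval -0.27 to 0.23, adjusted p = 0.98), and the difference between lines in it was -0.49 (SE 0.17, unadjusted p = 0.0097, adjusted p = 0.51).

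Between lines, Slc6a9 was higher in HA than in LA saline arrays by 0.55 (SE 0.12, interval 0.30 to 0.80, 1.46-fold, adjusted p = 0.0092), again without overlap. Without LA saline replicate 2 the line differences were 0.69 for Slc6a9 and 0.75 for Slc6a11. The Slc6a9 difference fell under the limit on size, at 0.47, without LA saline replicate 3 (adjusted p = 0.035). On DMI-labelled arrays the difference was 0.06 (interval -0.20 to 0.31, adjusted p = 0.89).

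**Figure D1:**
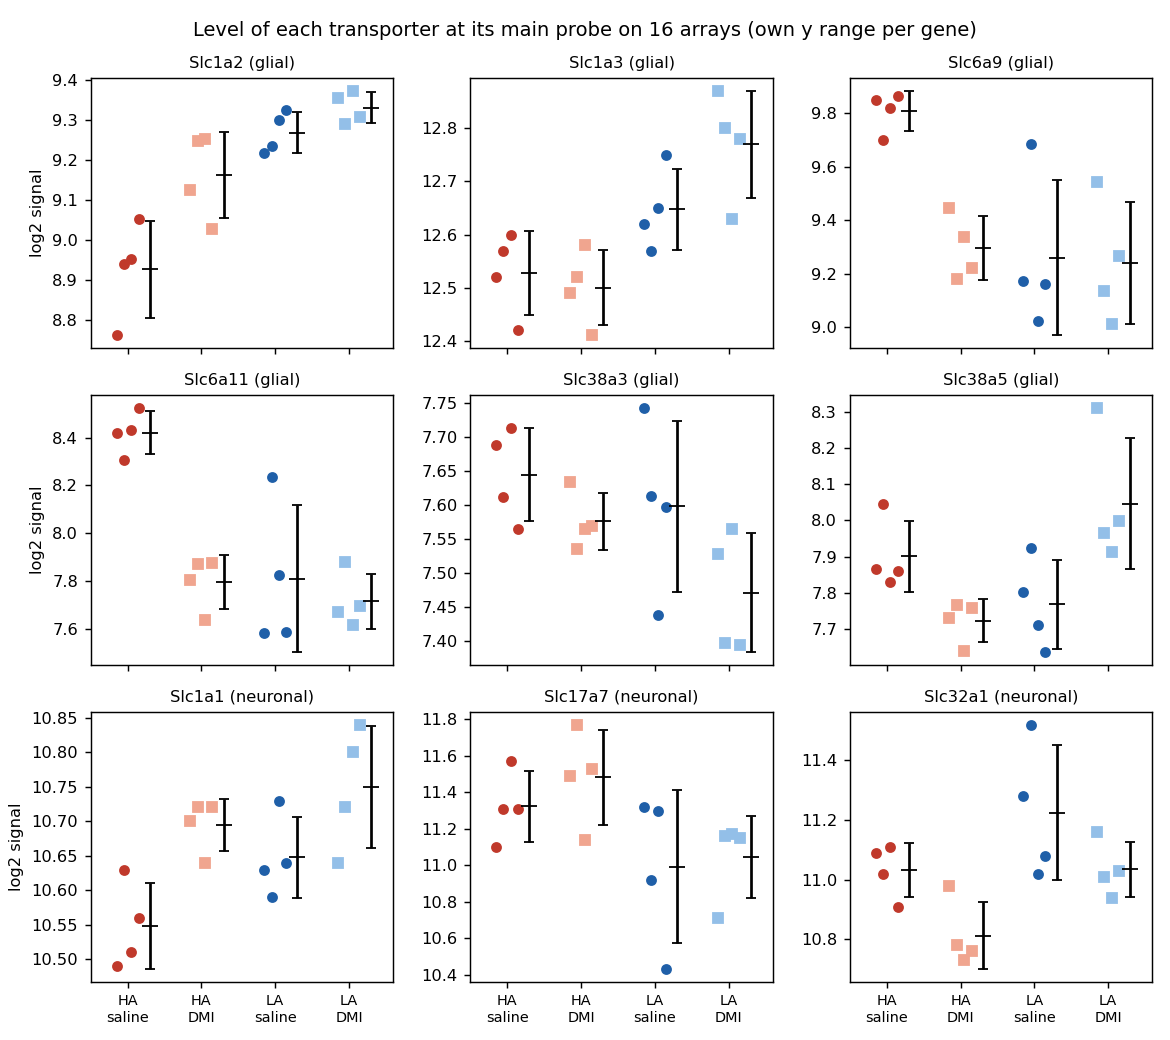
Level of each gene at its main probe, the one with the highest mean signal, on the y axis as log2 signal (each panel has its own range), by group on the x axis. Circles are saline-labelled and squares DMI-labelled arrays, and black bars show the mean and SD of 4 arrays. The 4 HA saline arrays lie above all others for Slc6a11 and for Slc6a9, where they start at 8.31 and 9.70.

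The thalamus and habenula genes moved with these 2 transporters. Of 20 listed genes 17 were detected, and all 17 had a negative HA difference, with a median of -0.74 against 0.0021 over all probes. At the adjusted p alone 4 of the 17 were lower on the HA DMI arrays, where 0.331% of all probes differed. They were the transcription factors Gbx2 (-1.05), Tcf7l2 (-1.17), Zic1 (-0.86) and Irx2 (-0.62). On the saline-labelled arrays 12 of the 17 were higher in HA than in LA mice, with a median of 0.76, and none was lower. Of all probes 6.36% differed between the same groups at the adjusted p. Without LA saline replicate 2 the counts were 9 in the HA comparison and 15 between the lines. The share of all probes at the adjusted p alone is not given for that fit. With the limit on size, calls over all probes rose from 29 to 47 and from 305 to 354. This array had the highest LA signal of these same genes, so the rise was partly set by the choice of array. Only Synpo2 of this list was detected on no array. The study names Gbx2, Slc17a6, Rora, Ntng1, Zic1, Prkcd, Calb2 and Cbln1 of this list as changed by DMI in HA mice on these arrays. The shared sign and the size of the median were therefore partly set by the choice of the list.

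Array by array the summed signal was highest in the HA saline group, and the other 3 groups overlapped. It was 8898 to 9391 on HA saline, 4167 to 5723 on HA DMI, 3390 to 7327 on LA saline and 3491 to 5832 on LA DMI arrays. LA saline replicate 2, the LA array with the highest Slc6a11 and Slc6a9, also had the highest LA sum, 7327. LA DMI replicate 1, the highest LA DMI array for Slc6a9, had the highest sum of its group, 5832, but read 7.67 for Slc6a11, inside the range of its group. The part of these genes in the transporter differences was not tested.

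Astrocyte genes moved less. Of 14 detected among 18 listed, 12 had a negative HA difference, with a median of -0.14, and none passed at the adjusted p by limma (5 at an unadjusted p under 0.05). Their summed signal was 25000 to 27770 on HA saline arrays, 22520 to 23250 on HA DMI, 22030 to 23800 on LA saline and 21890 to 22350 on LA DMI arrays. On the saline-labelled arrays 4 of the 14 were higher in HA than in LA mice, against 6.36% of all probes differing at the adjusted p. They were Clu (0.27), Ndrg2 (0.50), Acsbg1 (0.39) and Sox9 (0.65), and the median over the list was 0.18. Mlc1 was detected on no array. LA saline replicate 2, at 22920, was not set apart in this list as it was in the thalamic one. The part of astrocytes in the transporter differences was not tested either.

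Myelin genes also differed on the HA arrays, with a negative difference for all 11 detected and 3 lower at the adjusted p, against 0.331% of all probes. Their summed signal was 38790 to 41480 on HA saline and 29780 to 33690 on HA DMI arrays, and 40540 on LA saline replicate 2. The other lists, of choroid plexus, leptomeninges, striatal neurons, interneurons, hippocampal principal cells, microglia and endothelium, had at most 1 gene passing in the HA comparison. All 9 leptomeningeal genes had a negative HA difference (median -0.23). Their summed signal was 7694 to 8025 on HA saline, 7351 on LA saline replicate 2 and 5231 to 5781 on HA DMI arrays. Choroid plexus and endothelial sums were also lower on HA DMI than on HA saline arrays, without overlap. Principal-cell sums were higher, at 8983 to 9484 on HA saline and 10610 to 11200 on HA DMI arrays. Between HA and LA saline more of the listed genes differed at the adjusted p, where 6.36% of all probes did. Of the choroid plexus genes 7 of 10 were higher in HA (median 0.45, all 10 positive), of the myelin genes 3 of 11 (median 0.22) and of the leptomeningeal genes 2 of 9 (median 0.02). Striatal genes were lower for 3 of 8 (median -0.48) and interneuron genes for 2 of 9 (median -0.07), while microglia and endothelium had 1 lower gene each and the principal cells 1 higher and 1 lower. The part of any of these in the transporter values was not tested.

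**Figure D2:**
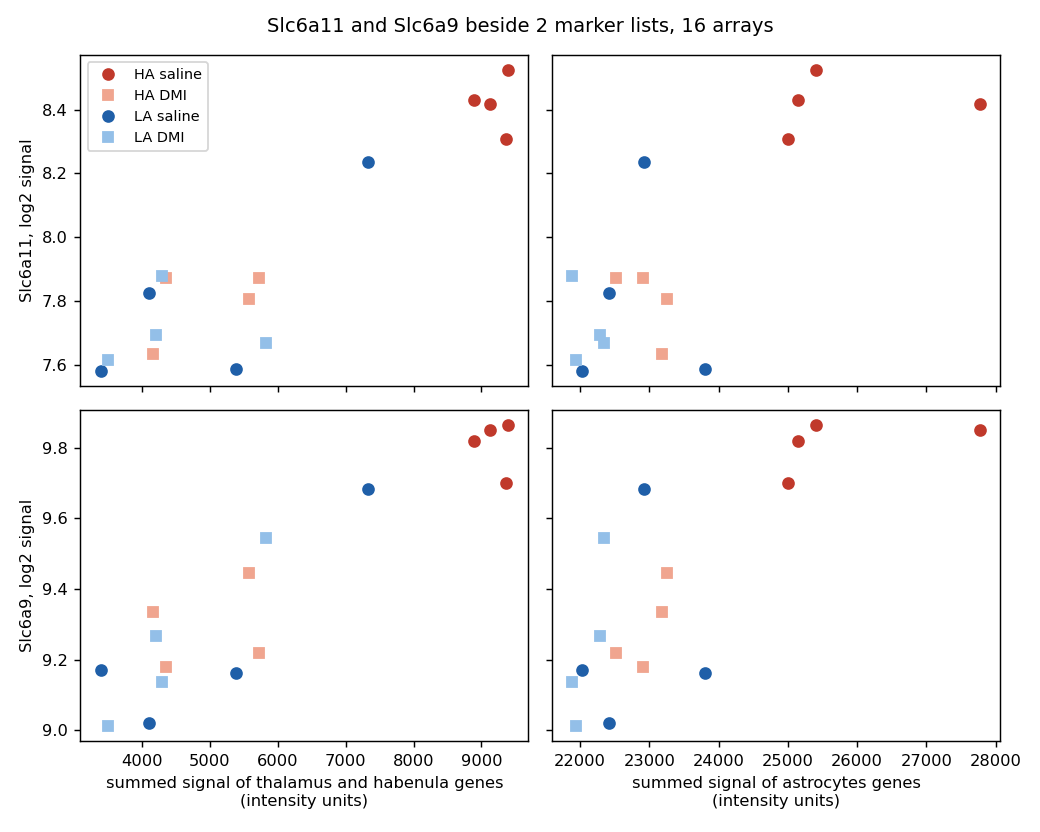
Log2 signal of Slc6a11 (upper row) and Slc6a9 (lower row) on the y axis against the summed linear signal, in the array's intensity units, of 17 thalamus and habenula genes (left) and 14 astrocyte genes (right) on the x axis, with 1 point per array. In the left panels LA saline replicate 2, at 7327, lies between the HA saline arrays and the other 11 arrays.

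The genes whose levels most resembled these 2 over the 16 arrays were taken among probes detected on every array. For Slc6a11 they were Igsf1 (Pearson r = 0.96), the calcium-binding protein gene Calb2 (0.95) and the secreted glutathione peroxidase gene Gpx3 (0.93). For Slc6a9 they were the protein kinase C gene Prkcd (0.94), Zfhx3 (0.93) and Ccdc136 (0.92). Calb2 and Prkcd are on the thalamic list. Slc6a11 and Slc6a9 correlated with each other at 0.85 (Spearman 0.68). All of these values hold the difference between HA saline and the other groups, which the points share, and are given as descriptions.

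Slc1a2 (GLT-1), which clears most glutamate from the forebrain and sits mainly on astrocytes, was low where these 2 were high. Its gene spans 102658239 to 102790784 on chromosome 2. At probe 1, HA saline arrays read 8.76, 8.94, 8.95 and 9.05, and HA DMI arrays read 9.13, 9.25, 9.25 and 9.03. LA saline arrays read 9.22, 9.24, 9.30 and 9.33, and LA DMI arrays read 9.36, 9.29, 9.37 and 9.31. The HA saline arrays were the low ones and did not overlap with LA saline, whereas a single HA DMI array reached into the HA saline range.

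The HA minus LA difference of Slc1a2 on saline-labelled arrays was -0.34 (SE 0.06, interval -0.47 to -0.22, adjusted p = 0.0021), which passed the adjusted p but not the limit on size. The HA difference between labels was 0.24 (SE 0.06, interval 0.11 to 0.36, adjusted p = 0.11) and the LA difference was 0.06 (interval -0.07 to 0.19, adjusted p = 0.85). Probe 2, which targets another transcript, gave -0.31 between the lines (SE 0.09, adjusted p = 0.043). Probes 3 and 4, mostly not detected, gave -0.06 and -0.03. Probe 4 targets the same transcript as probe 2 but was detected on only 2 arrays, too few to check it.

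This line difference was not kept under every setting. With arrays scaled to a common median it was -0.06 at probe 1 (adjusted p = 0.79) and -0.03 at probe 2 (0.90). With normexp background correction probe 1 kept its call (-0.40, adjusted p = 0.0062) and probe 2 lost it (-0.36, 0.071). Probe 2 also lost its call in 12 of the 16 fits with 1 array left out, up to an adjusted p of 0.14 without LA saline replicate 3 or HA saline replicate 1.

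Slc1a3 (GLAST), the other glial glutamate transporter, differed between lines on the DMI-labelled arrays. HA DMI arrays read 12.49, 12.52, 12.58 and 12.41, and LA DMI arrays read 12.87, 12.80, 12.63 and 12.78. All LA DMI arrays lay above all HA DMI arrays. The difference was -0.27 (SE 0.06, interval -0.39 to -0.15, adjusted p = 0.0098), under the limit on size. With median scaling it was -0.08 (adjusted p = 0.80).

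On saline-labelled arrays Slc1a3 read 12.42 to 12.60 in HA and 12.57 to 12.75 in LA mice, and the difference of -0.12 did not pass (adjusted p = 0.30). The differences between labels were -0.03 in HA (adjusted p = 0.97) and 0.12 in LA mice (0.58).

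The glutamine transporters of system N, which let astrocytes release glutamine, were Slc38a3 (SNAT3) and Slc38a5 (SNAT5). Slc38a5 was measured at 7.87, 8.05, 7.83 and 7.86 on HA saline and at 7.73, 7.77, 7.64 and 7.76 on HA DMI arrays. It was measured at 7.80, 7.92, 7.71 and 7.63 on LA saline and at 8.31, 7.96, 7.91 and 8.0 on LA DMI arrays. The HA groups did not overlap, with the DMI-labelled arrays below. The LA groups overlapped at the edge, with most DMI-labelled arrays above.

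The Slc38a5 differences were -0.18 in HA (SE 0.08, adjusted p = 0.53) and 0.28 in LA mice (SE 0.08, interval 0.11 to 0.44, adjusted p = 0.27). Neither passed, nor did the difference between them, -0.46 (SE 0.11, interval -0.69 to -0.22), although its unadjusted p of 7.5e-04 was the smallest among the members in that comparison (adjusted p = 0.26). HA DMI lay below LA DMI by -0.32 (SE 0.08, adjusted p = 0.022, adjusted p only), without overlap. That call was lost with median scaling (-0.17, adjusted p = 0.51) and without LA DMI replicate 1 (-0.23, 0.064), HA DMI replicate 3 (0.063) or HA DMI replicate 1 (0.051).

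Other marker lists differed between the same 2 groups as Slc38a5 and Slc1a3 did. Of the 10 choroid plexus genes 9 were higher in HA DMI than in LA DMI at the adjusted p (median 0.89), and their summed signal was 25280 to 27840 on HA DMI and 5729 to 12360 on LA DMI arrays. It was 28220 to 30080 on HA saline and 17670 to 29410 on LA saline arrays, so the LA DMI group stood apart. At the adjusted p 3 of the 10 were lower in LA DMI than in LA saline, and all 10 had a negative difference (median -0.57). The study gives Ttr, Otx2, Kl, Sostdc1 and Igfbp2 of this list as raised by DMI in LA mice, which is the opposite sign. Of the 6 endothelial genes 3 were lower in HA DMI than in LA DMI and all 6 had a negative difference (median -0.24). Between these 2 groups 4.91% of all probes differed at the adjusted p. The part of these genes in the Slc38a5 and Slc1a3 differences was not tested.

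Slc38a3 ranged from 7.40 to 7.74 over the 16 arrays. Its differences were -0.07 in HA (adjusted p = 0.87) and -0.13 in LA mice (interval -0.25 to 9.3e-05, adjusted p = 0.58), and its groups overlapped in each comparison.

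Of the neuronal transporters, Slc1a1 (EAAC1), a glutamate and cysteine carrier of the neuronal membrane, had the smallest SE. At probe 1, HA saline arrays read 10.49, 10.63, 10.51 and 10.56, and HA DMI arrays read 10.70, 10.72, 10.64 and 10.72. The groups did not overlap, with the DMI-labelled arrays above, but the difference of 0.15 (SE 0.05, interval 0.04 to 0.25, adjusted p = 0.31) did not pass. In LA mice it was 0.10 (interval -0.0021 to 0.21, adjusted p = 0.59), and probe 2 gave 0.05 and -0.08.

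Slc17a7 (VGLUT1) fills the vesicles of most excitatory hippocampal neurons. It read 11.10, 11.31, 11.57 and 11.31 on HA saline, 11.49, 11.77, 11.14 and 11.53 on HA DMI, 11.32, 10.92, 11.30 and 10.43 on LA saline and 10.71, 11.16, 11.17 and 11.15 on LA DMI arrays. The groups overlapped in every comparison, and LA saline replicate 4 was the lowest array. Its SE of 0.17 for a difference between 2 groups was the largest among the members. The differences were 0.16 in HA (interval -0.20 to 0.52, adjusted p = 0.91) and 0.05 in LA mice (0.97), and HA minus LA was 0.33 on saline-labelled (0.34) and 0.44 on DMI-labelled arrays (0.19).

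Slc32a1 (VGAT) loads GABA and glycine into the vesicles of inhibitory neurons. It read 11.09, 11.02, 11.11 and 10.91 on HA saline, 10.98, 10.78, 10.73 and 10.76 on HA DMI, 11.28, 11.52, 11.02 and 11.08 on LA saline and 11.16, 11.01, 10.94 and 11.03 on LA DMI arrays. All groups that were compared overlapped. The differences between labels were -0.22 in HA (SE 0.09, interval -0.41 to -0.03, adjusted p = 0.45) and -0.19 in LA mice (SE 0.09, adjusted p = 0.56), and none of the 5 tests passed.

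**Figure D3:**
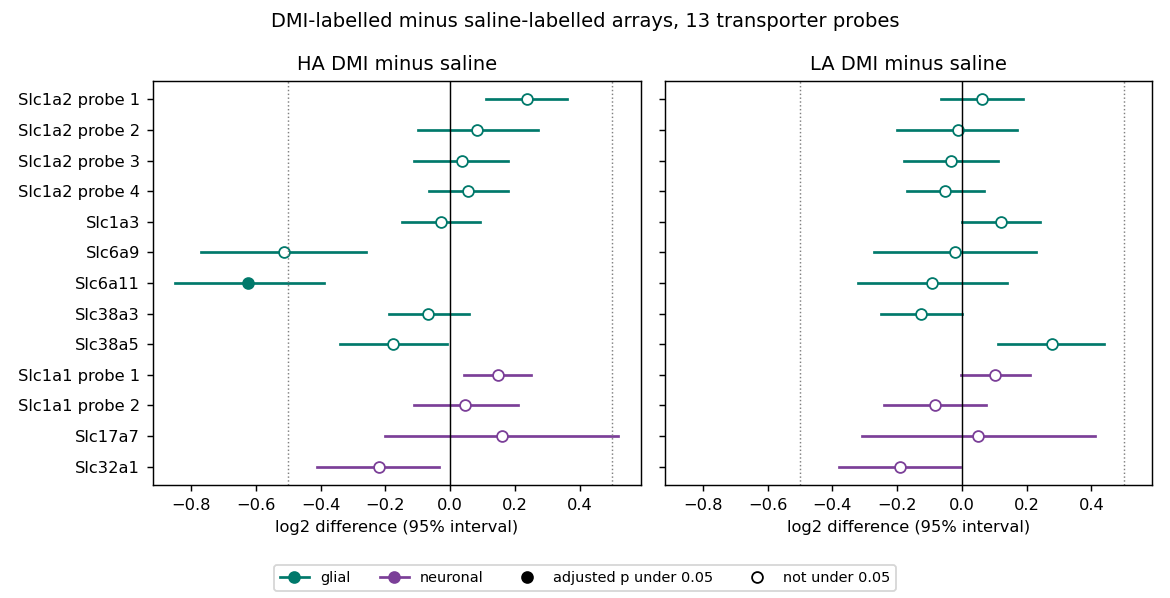
Log2 difference between DMI-labelled and saline-labelled arrays with its 95% interval on the x axis, for the 13 probes on the y axis, in HA (left) and LA mice (right). Filled points have an adjusted p under 0.05 and dotted lines mark the limit on size. Slc6a11 in HA mice, at -0.62, is the filled point.

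Over the members, 1 of 13 probes passed in HA mice (7.69%), against 0.113% of all probes, or 0.331% without the limit on size, where the member count was also 1. In LA mice 0 of 13 passed, against 0.0311% of all probes, or 0.0662% without the limit (limma). At an unadjusted p under 0.05 (limma) there were 6 in HA mice and 3 in LA mice, the latter being Slc1a3, Slc38a5 and Slc32a1. For the difference between lines in the label effect 0 of 13 passed, against 0.00389% (limma), and 3 had an unadjusted p under 0.05. With median scaling the HA count was 0. The study had already named Slc6a11 and Slc6a9 as changed in HA mice, and the members were chosen with earlier results known. The shares of members, here and between the lines, are therefore no measure of enrichment.

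Between HA and LA saline arrays 2 of 13 probes passed (15.4%), against 1.19% of all probes, and without the limit 4 of 13 (30.8%), against 6.36%. Between HA and LA DMI arrays 0 passed by limma, against 0.852%, and without the limit 2 of 13 (15.4%), against 4.91%. At an unadjusted p under 0.05 (limma) there were 5 between HA and LA saline and 6 between HA and LA DMI arrays. The share of all probes at an unadjusted p under 0.05 was not counted for any comparison. The 2 line comparisons share no arrays with each other, but each shares a group with the label comparisons, so the high values of HA saline enter the HA difference and the saline line difference alike.

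The split of line calls depended on the scaling. Of all probes that passed on saline-labelled arrays 138 were higher and 167 lower in HA mice, but with median scaling 403 were higher and 45 lower. On DMI-labelled arrays the split was 99 to 120, and with median scaling 148 to 56. The LA label comparison split 2 higher to 6 lower, and 1 to 1 with median scaling. Slc6a11 and Slc6a9 kept their higher HA saline level with median scaling, at 0.81 (adjusted p = 0.013) and 0.83 (0.018).

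**Figure D4:**
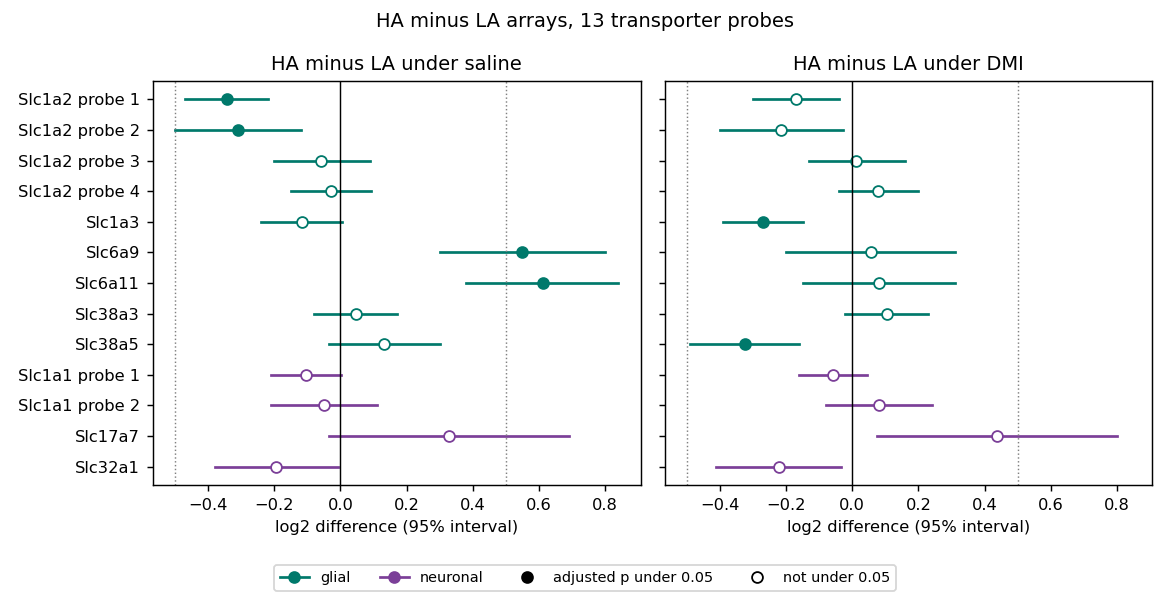
Log2 difference between HA and LA arrays with its 95% interval on the x axis, for the 13 probes on the y axis, on saline-labelled (left) and DMI-labelled arrays (right). Filled points have an adjusted p under 0.05. On the left Slc6a11 and Slc6a9 lie beyond the limit on size at 0.61 and 0.55, and the 2 filled Slc1a2 points lie below 0.

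Set against each other, the glial genes had a median HA difference of -0.12 at their main probes (5 of 6 negative, range -0.62 to 0.24) and the neuronal genes 0.15 (2 of 3 positive, range -0.22 to 0.16), beside a median of 0.0021 over all probes. In LA mice the medians were 0.02 and 0.05. With 1 array left out the LA medians ranged from -0.01 to 0.07 for the glial and from -0.14 to 0.14 for the neuronal genes, so neither kept a sign, and with median scaling they were 0.12 and 0.20. The HA median of the neuronal genes was 0.06 without HA DMI replicate 2, and that of the glial genes stayed between -0.14 and -0.10 in these fits. The mean of the 6 glial genes, each centred on its average over 16 arrays, was 0.09 to 0.13 on HA saline arrays and -0.12 to -0.05 on HA DMI arrays, without overlap. That gap came mostly from Slc6a11 (-0.62) and Slc6a9 (-0.51). The HA differences of the other glial genes lay between -0.18 (Slc38a5) and 0.24 (Slc1a2), so it is not a trait of the glial genes as a set. For the 3 neuronal genes it was -0.07 to 0.10 and -0.13 to 0.12, with overlap.

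The glial genes did not move as a set. Slc6a11 and Slc6a9 were high on HA saline arrays and Slc1a2 low, so that over the 16 arrays Slc1a2 correlated with Slc6a11 at -0.78 and with Slc6a9 at -0.72, while Slc1a2 and Slc1a3 correlated at 0.61. These correlations hold the group differences and are descriptions over 16 arrays. The difference between the glial and the neuronal genes was not tested.

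**Figure D5:**
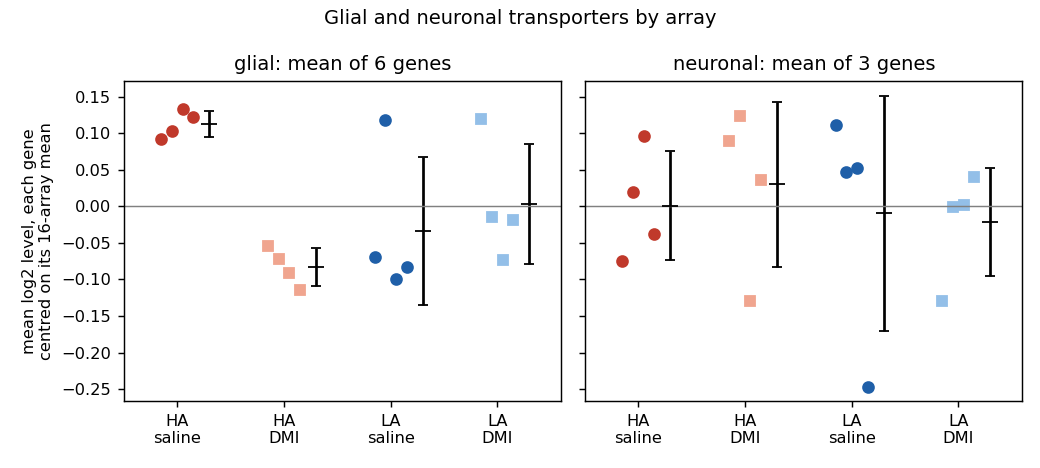
Mean log2 level of the 6 glial (left) and the 3 neuronal genes (right) on each array, each gene centred on its mean over 16 arrays, by group. Black bars show the mean and SD of 4 arrays. The HA saline arrays lie at 0.09 to 0.13 on the left.

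The genes most like the other members, by the same measure, were as follows. For Slc1a2 they were Cacna2d1, a calcium channel subunit gene (r = 0.97), Tmem68 (0.93) and Zfp148 (0.93). For Slc1a3 they were Frmd6 (0.91), the cohesin subunit gene Smc1a (0.88) and Brinp2 (0.87). For Slc38a3 they were Cops3 (0.85), the ceramide synthase gene Cers2 (0.83) and Cdkn1c (0.82), and for Slc38a5 Antkmt (0.88), Tnnc1 (0.88) and Alk (0.87). Among the neuronal members, Slc1a1 was nearest to Rbfox3 (0.93), the gene of the neuronal nuclear antigen NeuN, Zranb3 (0.83) and the histone gene H2ac20 (0.83). Slc17a7 was nearest to Phyhip (0.89), Rad23b (0.89) and the ribosomal protein gene Rpl13a (0.89), and Slc32a1 to Arhgef15 (0.89), Araf (0.85) and Tpbg (0.85).

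Around the members stand further carriers of the same amino acids and their precursors. Of 27 listed, 25 had a probe and 21 were detected on at least 4 arrays. In HA mice Slc7a11 was lower on the DMI-labelled arrays at the adjusted p alone, and in LA mice none passed by limma (3 at an unadjusted p under 0.05). Of all probes 0.331% in HA and 0.0662% in LA mice differed at the adjusted p alone. The list's median difference was -0.01 in HA and -0.02 in LA mice, near the 0.0021 and 5.3e-04 of all probes. Slc7a11 is the cystine/glutamate exchanger, and it read 8.12 to 8.14 on HA saline and 7.66 to 7.91 on HA DMI arrays (-0.37, SE 0.06, adjusted p = 0.018). The call was lost with median scaling (-0.39, 0.48) and when HA saline replicate 1 (0.065), HA saline replicate 3 (0.063) or HA DMI replicate 1 (0.060) was left out.

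Slc17a6 (VGLUT2), the vesicular glutamate transporter of the thalamus and brainstem, belongs to this list and to the thalamic one, and is named here after its values were seen. It read 10.77 to 10.98 on HA saline, 9.08 to 9.95 on HA DMI, 8.46 to 10.60 on LA saline and 9.03 to 10.14 on LA DMI arrays. Its HA difference of -1.35 (SE 0.34, adjusted p = 0.10) and its saline line difference of 1.14 (SE 0.34, adjusted p = 0.05 after rounding, just above the threshold) did not pass, although the groups did not overlap in either comparison. Also without overlap in HA mice and without passing were Slc6a13 (-0.43, adjusted p = 0.081), Slc25a18 (-0.47, 0.20) and, the other way, Slc17a8 (0.16, 0.40). They too are named after their values were seen. The share of all probes whose groups did not overlap is not given here for any comparison, so lack of overlap does not set these genes apart.

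Between the lines, Slc38a2 (SNAT2), a neutral amino acid carrier, was lower in HA mice at its main probe by -0.36 on saline-labelled (adjusted p = 0.013) and -0.33 on DMI-labelled arrays (0.028). Its other detected probes gave -0.07 and 0.03, and -0.16 and -0.0089. Slc6a12 (BGT-1), a betaine and GABA carrier, was lower in HA mice on DMI-labelled arrays (-0.41, SE 0.09, adjusted p = 0.012). At the adjusted p alone this was 1 of 21 detected carriers on saline-labelled arrays, against 6.36% of all probes. On DMI-labelled arrays it was 2 of 21, against 4.91%. With median scaling none of these calls held (adjusted p of 0.75, 0.70 and 0.14).

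Of 21 enzymes of the glutamate, GABA and glycine cycles, 19 had a probe and 14 were detected. None passed between labels by limma, with 2 in HA and 0 in LA mice at an unadjusted p under 0.05, and the medians were -0.01 in HA and in LA mice. On saline-labelled arrays 3 differed between the lines at the adjusted p alone, against 6.36% of all probes. Glul, the glutamine synthetase of astrocytes, was lower in HA mice (7.12 to 7.40 against 7.52 to 7.97, -0.47, SE 0.09, adjusted p = 0.0026). Got1, the cytosolic aspartate aminotransferase, was higher (0.41, adjusted p = 0.0086), and so was Psat1, of serine synthesis (0.28, adjusted p = 0.016).

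On DMI-labelled arrays Glul was again lower in HA mice (-0.49, adjusted p = 0.0020), Psat1 and Got1 were higher (0.31 and 0.31), and Aldh5a1, which completes GABA breakdown, was lower (-0.33, adjusted p = 0.0043). These were 2 higher and 2 lower of 14 enzymes at the adjusted p alone, against 4.91% of all probes. With median scaling the adjusted p was 0.082 and 0.073 for Glul, 0.053 and 0.13 for Psat1, 0.35 for Aldh5a1, and 0.043 and 0.16 for Got1, which kept its call on saline-labelled arrays. Got1 on DMI-labelled arrays passed in 7 of 16 fits with 1 array left out.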

How the data were processed

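Hippocampal RNA of 16 pools was measured on 1-colour arrays, in 4 groups taken from the sample labels. The authors deposited an intensity per probe and array, without normalization between arrays, and beside it a detection p-value that sets the probe against the negative controls of its array. From these signals the authors computed the deposited log2 values by log2 transformation and quantile normalization, with a median of 6.69 on every array. The array reader's software is not given in the sources used here.

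Here the deposited signals were log2 transformed and then quantile normalized (limma 3.58.1 in R 4.3.3, no background subtraction, median 6.70). They differed from the authors' log2 values by at most 0.046, so scale, centring and direction of those are known, and the authors' values were an alternative. All 25697 probes were fitted by lmFit and eBayes, each group having its own mean, without a covariate. The fitting was tested on simulated data.

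Symbols came from the platform annotation, updated by gene ID to GRCm38.p6. Of the probes 23978 had 1 symbol, 0 several and 1719 none, and 23962 matched by gene ID. A gene's main probe was that with the highest mean signal. Named were all members, the transporters and enzymes with an adjusted p under 0.05 in any comparison, and the 3 genes most correlated with each member. Slc17a6, Slc6a13, Slc25a18 and Slc17a8 were added after their values were seen. Members and gene lists were chosen with earlier results of these data known. Alternatives were the authors' values, normexp (offset 16), median scaling, detected probes only, array weights, the replicate number as a block, the line's own 8 arrays, no limit on size, and each array left out. Scan and chip positions were not used here, so a batch could not be fitted. The number of arrays limits the precision.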

Additional observations from a re-analysis of the deposited data

Results flagged for a closer look

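In 2 of 52 sets of 4 arrays tested over the 13 probes, a single array lay far from the rest, where chance gives about 1 in 20. Slc38a5 on HA saline replicate 2 was 8.045, against 7.83 to 7.865 on the other HA saline arrays. Slc17a7 on LA DMI replicate 1 was 10.71, against 11.15 to 11.17 on the other LA DMI arrays.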

How the results depend on the processing

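Under 14 changes of a setting and 21 fits without an array a difference changed sign, in each case a difference that had not passed. With median scaling this gave 0.0682 for Slc1a3 in HA, 0.099 for Slc1a2 probe 2 and 0.0785 for Slc6a9 in LA, -0.00915 for Slc1a2 probe 2 and -0.0787 for Slc1a1 probe 1 in the difference between lines of the label effect, 0.135 for Slc1a3, 0.197 and 0.0773 for Slc1a1 probes 1 and 2 and 0.0692 for Slc32a1 between HA and LA saline, and 0.0235 for Slc1a2 probe 1, -0.0326 for Slc1a2 probe 3 and 0.119 for Slc1a1 probe 1 between HA and LA DMI. With array weights it gave 0.0199 for Slc32a1 in the difference between lines of the label effect and -0.0164 for Slc1a2 probe 3 between HA and LA DMI. Leaving out single arrays gave ranges in LA of -0.122 to 0.121 for Slc6a9, -0.169 to 0.0493 for Slc6a11, -0.138 to 0.164 for Slc17a7, -0.104 to 0.0536 for Slc1a2 probe 2 and -0.0573 to 0.0155 for Slc1a2 probe 3, and in HA of -0.0261 to 0.0814 for Slc1a2 probe 3. For the difference between lines of the label effect they were -0.00449 to 0.298 for Slc17a7 and -0.127 to 0.0403 for Slc32a1. Between HA and LA saline they were -0.00717 to 0.0946 for Slc38a3 and -0.113 to 0.00166 for Slc1a1 probe 2, and between HA and LA DMI -0.0505 to 0.0571 for Slc1a2 probe 3 and -0.0206 to 0.157 for Slc6a9.

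The count of members passing in HA, 1, became 0 with normexp and 0 with median scaling, 2 with detected probes only and 2 with the line's own 8 arrays, and 0 to 2 without single arrays. The difference between lines of the label effect gave 0 to 1 without single arrays. The line count on saline-labelled arrays, 2, became 4 with no limit on size and 1 to 2 without single arrays, and that on DMI-labelled arrays, 0, became 2 with no limit on size. The cause was not tested, except that detected probes only adjusts over fewer probes. The authors' values changed no member's call.

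Over all probes the counts were 29 in HA against 4 (median scaling), 50 (array weights) and 60 (own 8 arrays), and 8 in LA against 2 (median scaling), 3 (replicate block) and 0 (own 8 arrays). They were 1 for the difference between lines of the label effect against 0 (median scaling), 2 (detected probes only, replicate block) and 3 (normexp), and 305 and 219 between the lines against 816 and 588 with normexp. Without single arrays they were 8 to 47 in HA, 0 to 31 in LA, 1 to 28 for the difference between lines of the label effect, 254 to 354 between HA and LA saline and 203 to 258 between HA and LA DMI.

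Replicate numbers are only numbers here. Same-numbered arrays of different groups had deviations correlated from -0.39 to 0.24, 7 of 24 pairs were over 0.1, and 6 of 16 arrays fitted best with their own number. With the replicate number as a block the Slc6a11 difference in HA stayed -0.62 (adjusted p = 0.031), Slc6a9 stayed -0.51 (0.11), and no member's call changed.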
